A study of Rattus norvegicus with 8 samples.

Results

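Bile acids are made in the liver from cholesterol, joined to an amino acid, pumped into bile and taken back up from portal blood. The transcripts of 10 genes of this cycle were examined in the liver of 21-day-old rats, using all probes whose accession matched one of the chosen symbols: the sterol hydroxylases Cyp7a1, Cyp8b1, Cyp27a1 and Cyp7b1, the conjugating enzymes Slc27a5 and Baat, the transporters Slc10a1 and Abcb11, and the receptors Nr1h4 and Nr0b2. They are 10 of the 15168 genes with a symbol on the array and had 11 of its 30367 probes, 2 of them for Nr1h4 and 1 for each other gene. All 11 were among the 11407 probes with enough liver signal to be tested.

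The livers came from male Sprague-Dawley pups at postnatal day 21 whose dams had been dosed from gestation day 0 to postnatal day 20 and which had stayed with their own mothers. Control dams received corn oil. Dams of the mixture group, labelled 0.5MAhR, received organochlorine pesticides, polychlorinated biphenyls (PCBs) and methyl mercury at 0.5 mg/kg/day in corn oil, plus a second set of chemicals that activate the aryl hydrocarbon receptor (AhR), namely non-ortho PCBs, dibenzodioxins and dibenzofurans. The total dioxin-equivalent dose was 6.3 ng/kg/day. Each group had 4 arrays, each with pooled liver RNA of 2 pups, so 8 pups entered each group. The litter of each pup is not given in the labels used here. Liver RNA was labelled with Cy5 on every array, and a universal rat reference RNA, pooled from 14 cell lines, with Cy3. Control arrays carry the replicate numbers 5 to 8 and mixture arrays 1 to 4, and values below follow that order. Each value is a log2 ratio of liver over reference unless stated otherwise. A single slide carried all arrays in 2 columns. Both columns held 2 arrays of each group, and slide column was fitted together with group.

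As background, cholesterol enters bile acid synthesis by a classic route that opens with Cyp7a1 and by an alternative route in which Cyp27a1 and Cyp7b1 act. Cyp8b1 sets how much cholic acid is formed. Bile acids bind the nuclear receptor FXR, encoded by Nr1h4, which induces the repressor SHP, encoded by Nr0b2, and the export pump encoded by Abcb11, and SHP lowers transcription of Cyp7a1. Around weaning, a rat pup passes from a milk diet to solid food while its bile acid pool and its transporters are still maturing.

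The mixture contained AhR agonists, so the promoters of the member genes were searched for GCGTG, the core of the site that the AhR binds, and for AGGTCA, a half-site of nuclear receptors such as those that control this cycle. Promoter sequences from RefSeq (build GRCr8, from 250 bases before to 50 after the gene start) were at hand for 6 of the 10 genes: Cyp8b1, Cyp27a1, Slc10a1, Baat, Slc27a5 and Nr0b2. Both strands were searched, and no match of one motif overlapped a match of the other in these promoters. GCGTG lay in the promoters of Nr0b2, starting 135 bases before the gene start, and of Slc27a5, 89 bases before it on the opposite strand, where it reads CACGC. Of 33469 rat promoters of the same length, 29.7% held it. AGGTCA lay in the promoters of Slc10a1, 197 and 99 bases before the start, and of Cyp27a1, against 16.2% of all promoters. A match is a description of the letters, not a bound site. The 250 bases before the start are shown for the 2 genes with the AhR core and for Slc10a1, which holds 2 half-sites on its own strand, with the matches in capitals. Those of Nr0b2 are chr5:151062910-151063159 (+ strand), those of Slc27a5 chr1:82699336-82699585 (- strand) and those of Slc10a1 chr6:106357945-106358194 (- strand), and all read 5′ to 3′ toward the gene.
Nr0b2: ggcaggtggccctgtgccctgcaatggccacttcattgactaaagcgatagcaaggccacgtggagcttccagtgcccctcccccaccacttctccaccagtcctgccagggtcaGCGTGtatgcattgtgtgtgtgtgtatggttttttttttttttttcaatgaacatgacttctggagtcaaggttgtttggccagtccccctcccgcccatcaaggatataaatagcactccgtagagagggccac
Slc27a5: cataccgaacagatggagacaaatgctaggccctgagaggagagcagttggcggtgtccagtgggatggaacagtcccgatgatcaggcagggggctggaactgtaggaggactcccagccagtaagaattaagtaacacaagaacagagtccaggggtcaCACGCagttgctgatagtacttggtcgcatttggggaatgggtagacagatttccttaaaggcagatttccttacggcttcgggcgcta
Slc10a1: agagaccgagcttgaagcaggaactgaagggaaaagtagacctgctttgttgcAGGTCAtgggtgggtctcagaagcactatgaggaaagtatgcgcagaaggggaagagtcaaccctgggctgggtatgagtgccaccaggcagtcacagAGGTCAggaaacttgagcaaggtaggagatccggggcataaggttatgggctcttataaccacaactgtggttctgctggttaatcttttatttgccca

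The exposure and the tissue were checked first. Cyp1a1, the P450 classically induced through the AhR, lay at 0.90 ± 0.53 (SD, n = 4) in control livers; in mixture livers it lay at 4.93 ± 0.58 (SD, n = 4), so the difference was 4.04 (SE 0.31, adjusted p = 0.00304, limma). Its Cy5 signal was well above background in 3 of the 4 control livers and in all 4 mixture livers. The control mean and the difference include the control liver without such a signal. The difference ran from 3.07 with median centring to 5.20 with processed signals. Of all 11407 probes, 9 passed the adjusted p threshold of 0.05 with slide column fitted, all higher in the mixture group, and 1 without it. All 7 hepatocyte markers were well above background on all 8 arrays. Of 6 bile duct markers on the array, 2 were well above background on all 8 arrays and 2, Cftr and Slc10a2, on none. The ileal bile acid genes Fabp6 and Slc10a2 were not well above background on any array. Across probes, r between arrays was 0.98 to 0.991 within a slide column and 0.936 to 0.961 between columns.

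For none of the 10 bile acid genes did the difference between the groups pass the test, which does not show that their levels were equal. Of their 11 probes, 0 passed an adjusted p of 0.05 in limma with or without slide column fitted, against 0.0789% of all tested probes with it and 0.00877% without it, and 0 had an unadjusted p under 0.05, against 6.25% with it and 1.53% without it. For 0 of the 11 did the control and mixture arrays separate without overlap, against 1.3% of all tested probes. The difference between mixture and control was above 0 for 7 probes and below 0 for 4, with a median of 0.014, and 48% of all tested probes had a difference above 0, with a median of -0.0052. For all 11 except the brighter Nr1h4 probe, the sign of the difference turned under at least one other processing, within one slide column or without one array, and 4 of the 11 had the same sign in both slide columns. The differences ran from -0.55 for Abcb11 to 0.15 for the brighter Nr1h4 probe. At whole liver level, fewer cells of a type and less RNA per cell cannot be told apart.

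**Figure D1:**
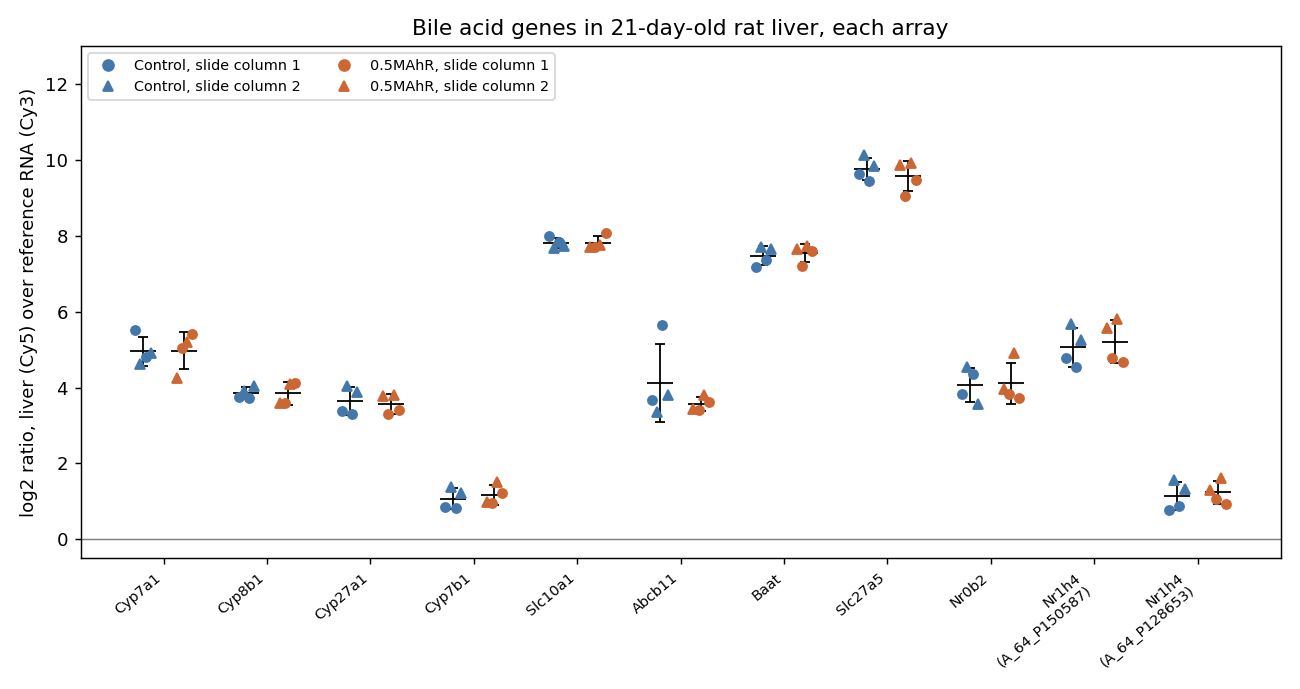
Log2 ratio of liver (Cy5) over reference (Cy3) for each of the 11 probes on each of the 8 arrays. Blue marks are control and orange marks mixture arrays, circles slide column 1 and triangles column 2, and bars give the mean and SD of 4 arrays. The groups overlap for every probe, and Abcb11 on control replicate 7, at 5.65, stands above the other arrays.

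Cyp7a1, the rate-limiting enzyme of the classic route, had log2 ratios of 5.51, 4.62, 4.81 and 4.90 on the control arrays and 4.26, 5.05, 5.19 and 5.40 on the mixture arrays. The highest value was control replicate 5 and the lowest mixture replicate 1, and the groups overlapped over most of their range. The means were 4.96 ± 0.38 (SD, n = 4) and 4.98 ± 0.50 (SD, n = 4). Their difference was 0.014 (SE 0.21, adjusted p = 0.994), and its 95% interval, from -0.46 to 0.49, spans 0.726 to 1.40 times the control level. In slide column 1 the difference was 0.066 and in column 2 it was -0.038. Cyp7a1 has 10 spots on the array, and the SD of its spots within an array ran from 0.22 to 0.59. Net Cy5, with the local background taken off and averaged over the spots of an array, ran from 418 to 1067 units.

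Cyp8b1, the sterol hydroxylase that leads to cholic acid, had log2 ratios of 3.74, 3.91, 3.72 and 4.04 on the control and 3.59, 3.59, 4.09 and 4.13 on the mixture arrays. Mixture replicates 1 and 2 were the lowest and 3 and 4 the highest of all arrays, so the controls lay between them. The means were 3.85 ± 0.15 (SD, n = 4) and 3.85 ± 0.30 (SD, n = 4), with a difference of -0.0060 (SE 0.14, 95% interval -0.32 to 0.31). Slide column 1 gave 0.12 and column 2 -0.13.

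Cyp27a1, a mitochondrial hydroxylase that oxidises the sterol side chain, had the narrowest interval of the 11 probes. Its log2 ratios were 3.39, 4.03, 3.29 and 3.87 on the control and 3.79, 3.30, 3.80 and 3.40 on the mixture arrays. In both groups the higher pair of values was that of slide column 2. The means were 3.65 ± 0.36 (SD, n = 4) and 3.57 ± 0.26 (SD, n = 4), and with slide column fitted the difference was -0.078 (SE 0.073, 95% interval -0.24 to 0.086, adjusted p = 0.926). That interval spans 0.846 to 1.06 times the control level. Within slide column 1 the difference was 0.0048 and within column 2 it was -0.16, while in Cy5 alone it was -0.20 (SE 0.082, adjusted p = 0.655).

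Cyp7b1, the oxysterol hydroxylase of the alternative route, was dim in liver, with net Cy5 of 33.6 to 72.6 units per spot. Its log2 ratios were 0.86, 1.38, 0.82 and 1.21 on the control and 0.99, 0.95, 1.52 and 1.22 on the mixture arrays. The means were 1.07 ± 0.27 (SD, n = 4) and 1.17 ± 0.26 (SD, n = 4), a difference of 0.10 (SE 0.13, 95% interval -0.18 to 0.39). Mixture replicate 3 was highest, and the other mixture arrays lay within the control range. Slide column 1 gave 0.25 and column 2 -0.043.

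Slc27a5, the bile acyl-CoA synthetase that activates bile acids for conjugation, was far brighter in liver than in the reference. Net Cy5 ran from 37130 to 85651 units and net Cy3 from 99.0 to 159 units. The log2 ratios were 9.61, 10.12, 9.45 and 9.83 on the control and 9.88, 9.04, 9.91 and 9.47 on the mixture arrays. Mixture replicate 2 was lowest, and the other 3 mixture arrays lay within the control range. The means were 9.75 ± 0.29 (SD, n = 4) and 9.57 ± 0.41 (SD, n = 4), a difference of -0.18 (SE 0.11, 95% interval -0.43 to 0.071, adjusted p = 0.881). In slide column 1 it was -0.28 and in column 2 -0.085, while in Cy5 alone it was 0.065.

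Baat, which joins the activated bile acid to taurine or glycine, had log2 ratios of 7.19, 7.71, 7.35 and 7.65 on the control and 7.64, 7.21, 7.72 and 7.61 on the mixture arrays. The groups covered nearly the same range. The means were 7.47 ± 0.25 (SD, n = 4) and 7.55 ± 0.23 (SD, n = 4), a difference of 0.070 (SE 0.096, 95% interval -0.14 to 0.28). It was 0.14 in slide column 1 and 0.0014 in column 2.

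Slc10a1, the sodium-dependent carrier NTCP that takes bile acids up from blood, had the smallest SD of the 11 probes on the control arrays. Its log2 ratios were 7.98, 7.68, 7.83 and 7.74 on the control and 7.71, 7.71, 7.76 and 8.07 on the mixture arrays. Mixture replicate 4 stood apart from the other mixture arrays, which lay within the control range. The means were 7.81 ± 0.13 (SD, n = 4) and 7.81 ± 0.17 (SD, n = 4), a difference of 0.0047 (SE 0.087, 95% interval -0.19 to 0.20). That interval spans 0.876 to 1.15 times the control level, although processed signals of the scanner software gave -0.41 (adjusted p = 0.715). In slide columns 1 and 2 it was -0.017 and 0.026.

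Abcb11, the bile salt export pump of the canalicular membrane, showed the widest spread. The log2 ratios were 3.68, 3.37, 5.65 and 3.80 on the control and 3.44, 3.41, 3.80 and 3.63 on the mixture arrays. Control replicate 7 was high, and the other 7 arrays lay between 3.37 and 3.80. Both Abcb11 spots of that array were high, at 5.35 and 5.95, with net Cy5 of 1034 and 1606 units, and no spot on any other array exceeded 488 units. The means were 4.12 ± 1.03 (SD, n = 4) and 3.57 ± 0.18 (SD, n = 4), a difference of -0.55 (SE 0.39, 95% interval -1.43 to 0.33, adjusted p = 0.897). Without control replicate 7 the difference was -0.041 (SE 0.14, adjusted p = 0.978), and it was 0.040 in slide column 2, which does not hold that array. The gap of control replicate 7 to the nearest control array made up 0.812 of the control range, which is below Dixon's critical value for 4 samples. No other member probe had its highest control value on that array.

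Nr1h4, the bile acid receptor FXR, was measured by 2 probes that differ in brightness. A_64_P150587, with 1 spot and net Cy5 of 1049 to 3245 units, had log2 ratios of 4.78, 5.68, 4.53 and 5.26 on the control and 5.56, 4.79, 5.80 and 4.68 on the mixture arrays. Each group held a higher and a lower pair, and in both the higher pair was that of slide column 2. The means were 5.06 ± 0.51 (SD, n = 4) and 5.21 ± 0.56 (SD, n = 4), and with column fitted the difference was 0.15 (SE 0.11, 95% interval -0.0997 to 0.39, adjusted p = 0.910). A_64_P128653, with 2 spots and net Cy5 of 36.5 to 123 units, had log2 ratios of 0.76, 1.56, 0.88 and 1.34 on the control and 1.31, 1.06, 1.63 and 0.94 on the mixture arrays, again with the column 2 arrays higher. Its difference was 0.099 (SE 0.094, 95% interval -0.11 to 0.31, adjusted p = 0.929). In slide columns 1 and 2 the difference was 0.079 and 0.21 for the brighter and 0.18 and 0.020 for the dimmer probe, and both intervals contain 0.

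Nr0b2, the repressor SHP, had log2 ratios of 3.83, 4.54, 4.36 and 3.57 on the control and 3.97, 3.83, 4.91 and 3.72 on the mixture arrays. Mixture replicate 3 was the highest array, with net Cy5 of 5112 and 3050 units on its 2 spots. The means were 4.07 ± 0.45 (SD, n = 4) and 4.11 ± 0.55 (SD, n = 4), a difference of 0.034 (SE 0.27, 95% interval -0.57 to 0.64, adjusted p = 0.990). Slide column 1 gave -0.32 and column 2 0.39. Without mixture replicate 3 it was -0.23, and without control replicate 8 also -0.23. The interval spans 0.673 to 1.56 times the control level. Of the promoters searched, those of Slc27a5 and Nr0b2 hold the AhR core, and like all other members neither gene passed the test.

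**Figure D2:**
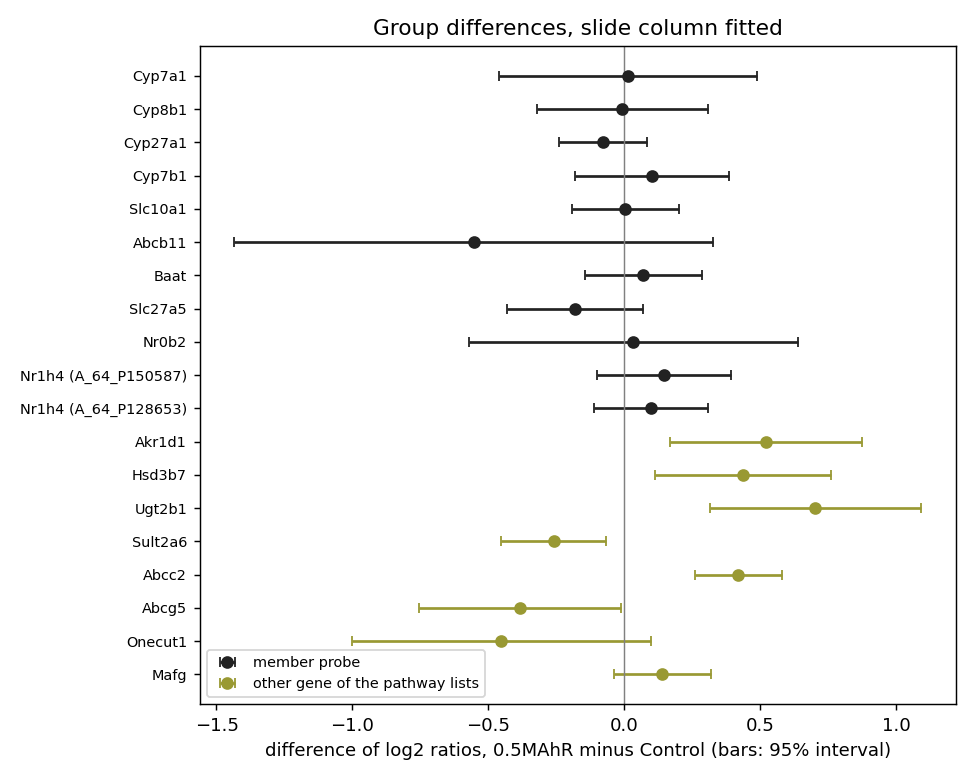
Difference of log2 ratios, mixture minus control, with its 95% interval from the fit with slide column, for the 11 member probes (black) and the 8 other genes of the cycle named in the text (olive). All 11 member intervals cross 0, that of Abcb11 from -1.43 to 0.33 being the widest and that of Cyp27a1 from -0.24 to 0.086 the narrowest.

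Against the reference RNA, all 11 probes were higher in liver, in control and in mixture arrays alike (adjusted p from 5.79e-14 to 1.21e-06 over both groups, limma). Of all tested probes, 87.6% differed from the reference in control livers; 48.1% were higher in control and 48.5% in mixture livers. The reference gave no Cy3 signal well above background on any of the 8 arrays for 5 probes, Cyp7a1, Cyp8b1, Cyp7b1, Slc10a1 and Abcb11, against 2.13% of all tested probes. For these the fold was computed on loess- and Aquantile-normalised channels against a floor on each array, or the probe's own Cy3 signal where higher. The floor, the dimmest signal that was well above background, is not a detection limit, since Cyp7b1 lay above it undetected. The fold is thus a lower bound only with respect to that floor. It is open to dye bias because no array had the dyes swapped. Slc10a1 was at least 213-fold higher in control and at least 217-fold higher in mixture liver than in the reference. Cyp7a1 was at least 26.1-fold higher in both groups, and Cyp8b1 at least 14.1-fold higher in both. Abcb11 was at least 16.3-fold higher in control and at least 11.3-fold higher in mixture liver, the former including control replicate 7. Cyp7b1 was 2.10-fold higher in control and 2.25-fold higher in mixture liver, which are its ratios as measured, since its Cy3 signal lay above the floor. These values hold for this normalisation alone. With median centring, the log2 control ratios of these probes (Slc10a1 6.78, Cyp7a1 4.01, Abcb11 3.27, Cyp8b1 3.00 and Cyp7b1 1.01) lie below them.

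The reference was measured for the other 6 probes on all 8 arrays. Slc27a5 was 863-fold higher in control liver than in the reference. Baat was 178-fold higher. Nr0b2 was 16.8-fold and Cyp27a1 12.5-fold higher. The Nr1h4 probes stood 33.4-fold and 2.20-fold above the reference, so that the 2 probes disagree on the size of the ratio. These sizes moved with the background correction and the normalisation. The control ratio of Slc27a5 lay between 8.78 and 10.33 over the alternatives, that of Baat between 6.48 and 8.35, that of Cyp27a1 between 2.60 and 4.09 and that of Nr0b2 between 3.04 and 4.55. Where the reference gave no signal the range was wider, from 4.01 to 10.03 for Cyp7a1, from 6.78 to 11.28 for Slc10a1, from 3.00 to 7.54 for Cyp8b1, from 3.27 to 8.47 for Abcb11 and from 0.84 to 4.66 for Cyp7b1. The ratio stayed above 0 and past the threshold under every alternative run.

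**Figure D3:**
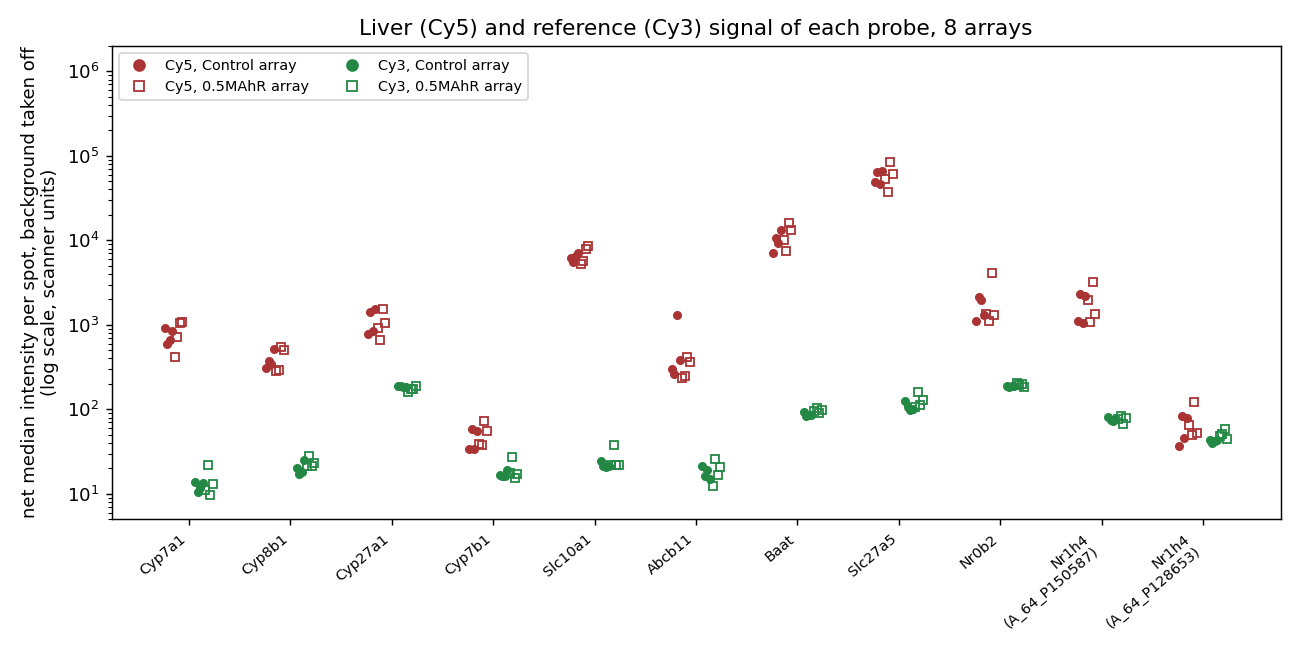
Net median intensity per spot (log axis, scanner units, local background taken off) of liver in Cy5 (red) and reference in Cy3 (green) for the 11 probes, with filled marks for control and open squares for mixture arrays. Cyp7a1 lies between 418 and 1067 units in liver and between 9.8 and 22.2 in the reference, and Slc27a5 between 37130 and 85651 in liver.

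The reference channel was compared between the groups as well, since the labels give the same reference RNA for all arrays. Of the 11 probes, 0 differed in Cy3 past an adjusted p of 0.05 (limma; adjusted p = 0.998 for each), against 0.00877% of all tested probes. At an unadjusted p under 0.05 there were Cyp27a1, with a Cy3 difference of -0.086, and Baat, with 0.073, against 3.72% of all tested probes. The largest Cy3 difference among the members was that of Slc27a5, at 0.14 (SE 0.062, unadjusted p = 0.0524, limma). For Cyp7a1, Cyp8b1, Cyp7b1, Slc10a1, Abcb11, Baat, Slc27a5 and the brighter Nr1h4 probe, the highest net Cy3 signal was that of mixture replicate 2. Net Cy3 of Slc10a1 was 37.5 units there and 21.1 to 24.4 on the other arrays, and that of Cyp7a1 was 22.2 and 9.8 to 13.9. Its part in the log ratios was not tested.

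Log ratios of several members also differed between the slide columns. With slide column fitted, the column difference of 5 of the 11 probes had an adjusted p under 0.05, against 56.9% of all tested probes. The column 2 ratios were higher by 0.88 for the brighter and 0.55 for the dimmer Nr1h4 probe, by 0.54 for Slc27a5, by 0.53 for Cyp27a1 and by 0.34 for Baat. Their adjusted p was 0.000138, 0.000867, 0.00260, 0.000254 and 0.0122 in that order. Cyp7a1 had a lower ratio in column 2, by -0.45, which missed the threshold (adjusted p = 0.0963). A check chosen after seeing the data used the 7162 probes with at least 2 spots, each spot taken relative to its own probe's mean. Along the 384 rows of an array these deviations correlated with row at r of 0.68 to 0.70 on the 4 arrays of column 1 and at r of -0.66 to -0.73 on the 4 arrays of column 2. The same trend stood in Cy5 taken alone, while in Cy3 alone r lay between -0.02 and -0.26. Control and mixture arrays of a column had r of the same sign.

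The members with the highest column differences have spots at low row numbers. The brighter Nr1h4 probe has its 1 spot at row 29, Slc27a5 its 2 spots at rows 38 and 82, and Cyp27a1 its 2 at rows 94 and 123. Cyp7a1 has 10 spots between rows 31 and 368. After a smooth trend over row and column was fitted on each array and taken off, the column difference was 0.20 for the brighter Nr1h4 probe, -0.032 for Slc27a5, 0.14 for Cyp27a1, 0.055 for Baat and 0.049 for the dimmer Nr1h4 probe, and 0 of the 11 passed. For Cyp7a1 it was -0.36 and for Abcb11 -0.54. Over all tested probes, 1245, or 10.9%, then differed between the columns. The group difference that moved most among the members, that of the brighter Nr1h4 probe, went from 0.15 to 0.10, and 0 of 11 passed. The count of probes that differed between the groups was 9 with and 9 without slide column in the fit, and these were the same 9 probes as before.

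**Figure D4:**
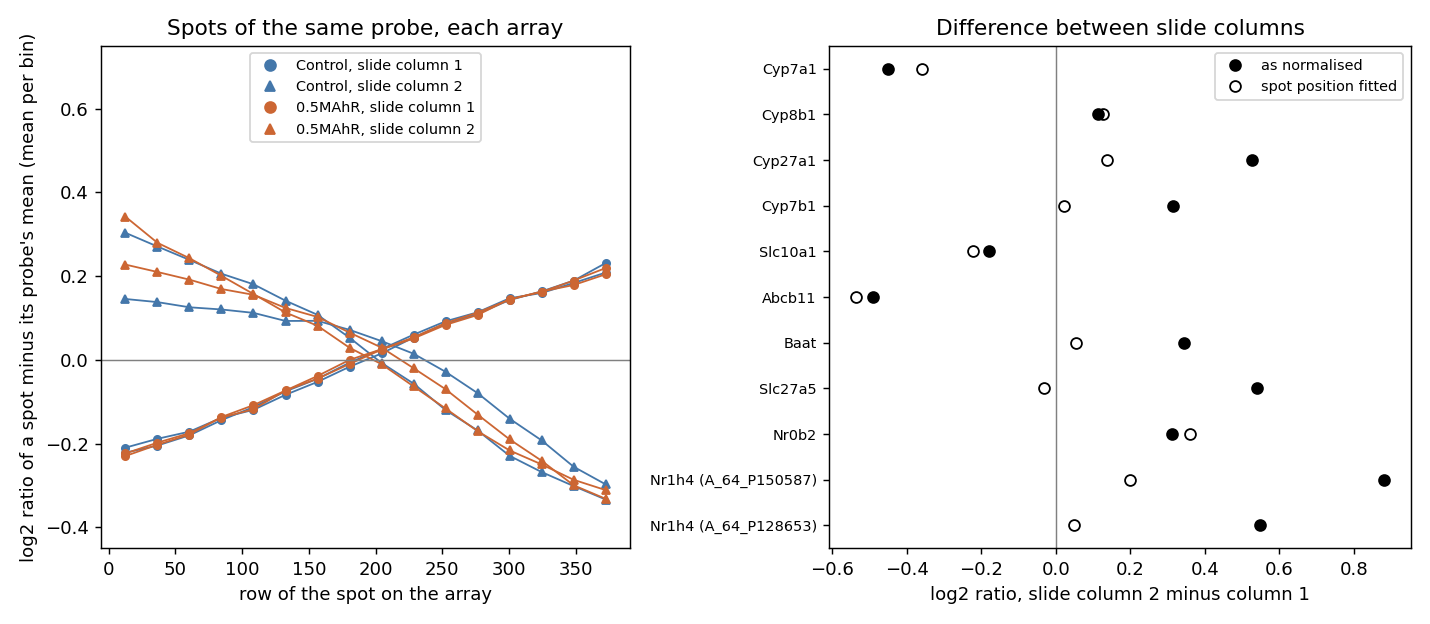
Left, mean deviation of spots from their own probe's mean log2 ratio, in bins of rows, for each array; column 1 arrays (circles) rise along the rows and column 2 arrays (triangles) fall, in control (blue) and mixture (orange) alike. Right, log2 ratio in slide column 2 minus column 1 for each member probe as normalised (filled) and with spot position fitted (open); the brighter Nr1h4 probe goes from 0.88 to 0.20.

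The other genes of the cycle were read from 4 lists of 76 genes, members included, of which 70 had a named probe and 57 were tested. Of the 57, 0 passed in either direction (limma, with or without slide column), 6 had an unadjusted p under 0.05 in the fit with slide column, 4 of them higher, against 6.25% of all tested probes, and 27 had a difference above 0 and 30 below. Their median difference was -0.0076, beside -0.0052 for all tested probes. For 2 of the 57, Hsd3b7 and Abcc2, the groups did not overlap, against 1.3% of all tested probes. From each list, the 2 genes outside the members with the smallest unadjusted p are given as values.

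Of 22 synthesis genes 19 were tested, 9 above 0 and 10 below, with a median of -0.0060. Akr1d1, which reduces the sterol ring of bile acid intermediates, had log2 ratios of 5.60, 5.13, 5.82 and 5.37 on the control and 5.34, 6.09, 6.02 and 6.55 on the mixture arrays, a difference of 0.52 (SE 0.16, adjusted p = 0.505). Mixture replicate 1 lay within the control range and the other 3 above it. Hsd3b7, which acts on the sterol nucleus after Cyp7a1, had 0.13, 0.64, 0.70 and 0.86 on the control and 0.95, 1.15, 0.90 and 1.08 on the mixture arrays. Every mixture array was above every control array, with a difference of 0.44 (SE 0.14, adjusted p = 0.607), or 0.70 in slide column 1 and 0.17 in column 2. The remaining tested synthesis genes lay between -0.26 and 0.19, among them the side-chain enzymes Acox2 at -0.24, Amacr at 0.015, Hsd17b4 at 0.060 and Scp2 at 0.0054. Cyp39a1, a hydroxylase of oxysterols, was at 0.19.

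Of 8 conjugation genes 7 were tested, with a median of -0.096. Ugt2b1, a glucuronosyltransferase, had log2 ratios of 6.84, 5.86, 6.84 and 6.22 on the control and 6.42, 7.22, 7.17 and 7.77 on the mixture arrays, a difference of 0.70 (SE 0.17, adjusted p = 0.377). Slide columns 1 and 2 gave 0.65 and 0.76, and mixture replicate 1 lay within the control range. Sult2a6, a hydroxysteroid sulfotransferase, had a mean of 9.42 ± 0.12 (SD, n = 4) on control and of 9.16 ± 0.11 (SD, n = 4) on mixture arrays, differing by -0.26 (SE 0.087, adjusted p = 0.607). Its relative Sult2a1 went the other way, differing by 0.45 (SE 0.20, adjusted p = 0.799), with 0.00029 in slide column 1 and 0.89 in column 2. Sult2a genes are close relatives, so their probes may share signal.

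Of 20 transport genes 15 were tested, 6 above 0 and 9 below, with a median of -0.042. Abcc2, the canalicular exporter of conjugated organic anions, varied little within a group. Its log2 ratios were 3.93, 3.95, 3.97 and 4.05 on the control and 4.52, 4.34, 4.30 and 4.42 on the mixture arrays. No array of one group reached the other, and the difference was 0.42 (SE 0.072, 95% interval 0.26 to 0.58), with 0.43 in slide column 1 and 0.41 in column 2. Over all tested probes its adjusted p was 0.166, so it did not pass. Abcg5, a subunit of the canalicular sterol exporter, had a mean of 4.58 ± 0.42 (SD, n = 4) on control and of 4.19 ± 0.39 (SD, n = 4) on mixture arrays, differing by -0.38 (SE 0.17, adjusted p = 0.770). The uptake carriers Slco1a1, Slco1a4 and Slco1b2 were at 0.036, 0.014 and 0.20, the phospholipid pump Abcb4 at -0.057 and the phospholipid flippase Atp8b1 at -0.096. The basolateral exporters Abcc3 and Slc51a were not well above background on enough arrays to be tested.

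Of 26 regulators 16 were tested, 9 above 0 and 7 below, with a median of 0.0092 and 0 at an unadjusted p under 0.05. The smallest p-values were those of the liver transcription factor Onecut1, at -0.45 (SE 0.24, adjusted p = 0.867), and of the small Maf protein Mafg, a repressor of bile acid synthesis genes, at 0.14 (SE 0.079, adjusted p = 0.867). The Cyp7a1 activators Nr5a2 and Hnf4a were at 0.014 and 0.039, the FXR partner Rxra at -0.018 and the liver receptor for the ileal signal, Fgfr4, at 0.082. The xenobiotic receptors Nr1i2 and Nr1i3, which bind some bile acids or respond to them, were at -0.11 and -0.042.

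Markers of liver cell types did not pass the threshold in either direction, with 0 genes of any list past it. At an unadjusted p under 0.05 (limma, slide column fitted) there were 2 of 7 hepatocyte and 2 of 5 periportal markers, all lower. There were also 1 of 5 pericentral and 1 of 5 stellate cell markers, both higher, against 6.25% of all tested probes. Without slide column, there was 1 pericentral marker alone, against 1.53% of all tested probes. Of all tested probes, 48% had a difference above 0. The difference was below 0 for all 7 hepatocyte markers (median -0.11) and all 5 periportal hepatocyte markers (median -0.30). It was above 0 for 4 of 5 pericentral markers (median 0.070) and all 6 Kupffer cell markers (median 0.087), and for 2 of 4 cholangiocyte, 2 of 5 stellate cell, 2 of 4 endothelial and 1 of 3 erythroid markers that were tested. Summed net Cy5 of the hepatocyte markers ran from 734852 to 871514 units on control and from 659415 to 890376 on mixture arrays, that of the periportal markers from 14007 to 26555 and from 11499 to 24375, and that of the pericentral markers from 17661 to 32143 and from 14583 to 34827. Kupffer cell markers summed to 5701 to 8745 units on control and 5977 to 13032 on mixture arrays. As background, Cyp7a1 is expressed mainly by hepatocytes near the central vein. The part of these markers in the members' values was not tested.

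The genes whose pattern over the 8 arrays was most like that of Cyp7a1, by Pearson's r after each column's mean was taken off, were Ugt2b10 (r = 0.991), Gna14 (r = 0.977), Psmb7 (r = 0.976), Sumo2 (r = 0.974) and Rfc1 (r = 0.974). These values describe 8 arrays that share a slide and, in pairs, a column and group, and they were picked as the highest of all named genes. Ugt2b10 had log2 ratios of 4.75, 2.79, 4.03 and 3.23 on the control and 2.50, 4.21, 3.59 and 4.67 on the mixture arrays, with a group difference of 0.042. Among the members, r with Cyp7a1 was 0.74 for Cyp8b1, 0.68 for Cyp7b1 and 0.57 for Slc10a1. It was 0.07 for Nr0b2, 0.29 for the brighter Nr1h4 probe and -0.30 for Abcb11.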

How the data were processed

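Labelled RNA (200 ng of liver RNA per array) was hybridised to 2-colour Agilent arrays, 8 of the 72 arrays of the study; the rest were not analysed here. Per the file headers, spot intensity values came from Feature Extraction 11.0.1.1 of Agilent, and the median foreground and background of each channel were used. The authors also deposited a table of log2 ratios, liver over reference, whose processing no source used here states. Against loess ratios made without background correction it gave r of 0.997 to 0.998 and slopes of 0.996 to 1.00, which settles scale and direction; its medians lay between -0.0389 and -0.0326, and its centring stayed unknown. It served as an alternative. Median Cy5 per array was 81 to 94 intensity units over a background of 68 to 73, and the share of spots well above it was 42.9% to 49.2%. The number of arrays limits the precision.

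Background was corrected with normexp (offset 50) in limma 3.58.1 (R 4.3.3). Loess ran within each array with control spots at zero weight, outlier spots were dropped, and the spots of each probe were averaged. Probes entered the test when Cy5 was well above background in over 0.5 of their spots, on 3 or more of the 4 arrays of either group. Of 30367 probes, 18005 were named by accession through a RefSeq table of assembly GRCr8. Every probe of a member was kept. Ratios were fitted with lmFit and eBayes on group and slide column (the first number of the array position in the scan name), two-sided, with Benjamini-Hochberg adjustment over all 11407 tested probes. All p-values of single probes are limma's. Cy3 alone was quantile-normalised and fitted likewise. The fits were tested on simulated data. Alternatives were the background correction, the normalisation, the deposited values, the filter, slide column, single arrays left out and spot position, for which natural splines with 5 degrees of freedom over row and over column were fitted per array.

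Besides the members and Cyp1a1, the rule for named genes took genes of the 4 lists past the threshold (there were 0), the 2 of each list with the smallest unadjusted p, and the 5 most like Cyp7a1; further genes of the lists were chosen after their values were seen and are given as values. The brightest probe stood for a gene in the lists. The members and lists were chosen with earlier results of these data known.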

Additional observations from a re-analysis of the deposited data

Results flagged for a closer look

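Of 38 groups of 4 arrays examined with Dixon's test over the members and the other named genes, 1 held an array past the 95% critical value, where chance flags about 1 in 20 groups. It was Slc10a1 in the mixture group, where mixture replicate 4 had a log2 ratio of 8.07 and the nearest other mixture array 7.76, a gap of 0.876 of the group's range. Control replicate 5 had 7.98. Abcb11 on control replicate 7 (0.812 of the range) and Nr0b2 on mixture replicate 3 (0.791) lay below the critical value.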

How the results depend on the processing

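The labels give no pairs, because the groups share no replicate numbers, but each slide row held 1 array of each group. With row and column fitted together, chosen after seeing the data, 0 of the 11 member probes and 9 of all probes passed the threshold (Abcb11 -0.55, adjusted p = 0.813, limma). In that fit the SE fell for some members (Abcb11 0.39 to 0.24, Nr0b2 0.27 to 0.15) and rose for others (Cyp7a1 0.21 to 0.24, Slc27a5 0.11 to 0.13). Over 25 alternatives, 274 differences of member probes were computed. Of these, 237 kept their sign, 37 turned, and 0 passed the threshold (smallest adjusted p = 0.612, limma). Alternatives that changed only the slide terms of the main fit, the variance model, the filter or the choice of probes left the differences themselves unchanged. No sign could turn in those, so the count of kept signs overstates how stable the signs were. All 263 levels against the reference stayed above it and past the threshold. Without background correction, Cyp7a1 was at -0.014 and Slc10a1 at -0.039, and with an offset of 16, Slc10a1 at -0.044. With processed signals, Cyp7a1 was at -0.074, Slc10a1 at -0.41, Baat at -0.077 and the dimmer Nr1h4 probe A_64_P128653 at -0.13. With the deposited values, Cyp7a1 was at -0.039 and Slc10a1 at -0.11. In Cy5 alone, Cyp7a1 was at -0.012 and Slc27a5 at 0.065, and with outlier spots kept, Slc10a1 at -0.011. Within slide column 1, Cyp8b1 was at 0.12, Cyp27a1 at 0.0048, Slc10a1 at -0.017 and Nr0b2 at -0.32; within column 2, Cyp7a1 was at -0.038, Cyp7b1 at -0.043 and Abcb11 at 0.040. With spot position fitted, chosen after seeing the data, Cyp8b1 was at 0.017 and Slc10a1 at -0.0012, with or without slide column. Leaving out single arrays gave -0.16 to 0.21 for Cyp7a1, -0.14 to 0.12 for Cyp8b1, -0.062 to 0.080 for Slc10a1, -0.023 to 0.14 for Baat and -0.23 to 0.21 for Nr0b2, which all span 0, while the other 6 probes kept their sign: -0.11 to -0.030 for Cyp27a1 (highest without control replicate 6), 0.019 to 0.24 for Cyp7b1 (lowest without mixture replicate 4, 0.025 without mixture replicate 3), -0.83 to -0.041 for Abcb11 (highest without control replicate 7), -0.26 to -0.074 for Slc27a5 (highest without mixture replicate 2), 0.049 to 0.22 for the Nr1h4 probe A_64_P150587 (lowest without control replicate 8) and 0.051 to 0.18 for A_64_P128653 (lowest without mixture replicate 3).

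The count of probes past the threshold, 9 with slide column fitted, was 1 without it, 4 with an offset of 16, 0 with processed signals (914 at an unadjusted p under 0.05), 5 with a trended robust variance, 17 in Cy5 alone and 5 with 1 probe per gene. It ran from 1 to 16 without single arrays: 2 without control replicate 5, 6 or 8 or mixture replicate 1, 1 without mixture replicate 3 or 4, and 16 without control replicate 7 or mixture replicate 2. Cyp1a1 missed the threshold with processed signals (5.20, adjusted p = 0.102) and within slide column 2 (3.78, adjusted p = 0.148).

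In Cy3, 1 probe passed, 10 with median scaling, 2 without background correction and 1 to 7 without single arrays (7 without mixture replicate 2). Of 121 Cy3 differences of members 5 turned sign, all without single arrays, where they ran from -0.012 to 0.0030 for Cyp7a1, -0.0020 to 0.021 for Cyp7b1, -0.048 to 0.0059 for Abcb11 and -0.043 to 0.00017 for the brighter Nr1h4 probe A_64_P150587; without control replicate 5, Cyp7a1 was at 3.80e-05. The cause was not tested. Where the reference gave no signal well above background, the level has at best a lower bound, and dye bias was not measured.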
